A study of Mus musculus with 3 samples.

Results

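TRBV12-1 and TRBV12-2 (both Vβ5), TRBV15 (Vβ12) and TRBV16 (Vβ11) are the 4 T cell receptor β chain V genes described here, out of 22 TRBV names given to productive TRBs in scTCR-Seq of the sciatic nerve of neuropathic mice. They were chosen because T cells that use them are deleted in many mouse strains that express the class II molecule I-E. Every productive TRB contig whose V gene carried exactly 1 of the 4 names was kept. These contigs came from 890 of 6256 cells with a productive TRB and from 526 of 3872 TRB rearrangements, a rearrangement being a V gene, a nucleotide CDR3 (the part encoded across the V, D and J joins) and a J gene counted once per library. Of the 890 cells, 98 also had a TRB with another TRBV name.

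The cells were CD45+ cells sorted from digested sciatic nerves of neuropathic NOD.AireGW/+ mice, NOD mice with 1 copy of a dominant mutant allele of Aire, a regulator of self-antigen expression in the thymus, that develop a spontaneous autoimmune neuropathy. There were 3 libraries from 4 mice: a single mouse gave replicate 1, another replicate 2, and 2 mice were pooled for replicate 3. All libraries had the same genotype and condition, so the comparisons are between genes, between libraries and between productive and nonproductive TRBs. Replicate 1 had 2253 cells with a productive TRB, replicate 2 had 3361 and replicate 3 had 642, with a median of 7, 6 and 4 unique molecular identifiers (UMIs) per TRB contig. Replicates 1 and 2 shared 7 cell barcodes, replicates 2 and 3 shared 3 and replicates 1 and 3 shared none, and no shared barcode carried the same TRB of the 4 genes in both libraries. Gene expression was not analysed here, so cells were not divided into CD4+ and CD8+ T cells, and the labelled sort was not checked against other marker genes.

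Endogenous mouse mammary tumour viruses, proviruses carried in the germline of laboratory mice, encode superantigens. A superantigen is shown to developing T cells on a class II molecule and binds the side of the receptor formed by the Vβ domain, largely irrespective of the CDR3 and of the α chain, so that whole Vβ families are lost in the thymus. The families lost to superantigens that depend on I-E include Vβ5, Vβ11 and Vβ12. NOD mice lack I-E, because their Ea gene is not expressed, and such T cells are therefore free to mature. Neither class II genotype nor provirus content was measured in these files, and no mice with I-E were included.

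The CDR1 and CDR2 loops of Vβ are encoded in the germline, so they are shown first. Which parts of Vβ a superantigen contacts was not examined here. The sequences below were read from the deposited contigs of replicates 2 and 3, as the most frequent one per gene, with CDR1 (15 bases) and CDR2 (18 bases) in capitals around 51 bases of framework. TRBV13-2 is shown as well because it shares the joint name TRBV12-2+TRBV13-2 with a member of the group.
TRBV12-1: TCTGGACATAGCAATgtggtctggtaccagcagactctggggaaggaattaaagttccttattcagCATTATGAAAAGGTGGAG
TRBV12-2: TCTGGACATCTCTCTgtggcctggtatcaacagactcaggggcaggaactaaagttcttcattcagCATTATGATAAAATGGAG
TRBV15: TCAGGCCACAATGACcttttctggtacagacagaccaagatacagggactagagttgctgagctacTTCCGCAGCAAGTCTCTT
TRBV16: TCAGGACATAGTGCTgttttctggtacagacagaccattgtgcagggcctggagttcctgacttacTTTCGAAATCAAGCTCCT
TRBV12-2+TRBV13-2 and TRBV13-2: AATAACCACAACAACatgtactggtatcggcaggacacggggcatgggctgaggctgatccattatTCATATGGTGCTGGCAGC

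The 4 genes formed a pair of related sets. TRBV12-1 and TRBV12-2 differed at 15 of these 84 bases and had 88.1% identity over the 270 bases of the V region up to the CDR3. TRBV15 and TRBV16 differed at 23 of 84 bases and had 71.8% identity. Between the sets, 37 to 46 of the 84 bases differed. The sequence printed for each gene was carried by 48 of 49 TRBV12-1 contigs, 86 of 86 TRBV12-2 contigs, 191 of 192 TRBV15 contigs and 291 of 291 TRBV16 contigs. The TRBV12-1 exception was 1 contig with 2 UMIs whose loops were those of TRBV13-1, and the TRBV15 exception differed at 1 base in a contig with 1 UMI. Over the whole V region, the most frequent sequence of each gene had 0 mismatches to GRCm38, the build named mm10. The printed stretches lie on the plus strand in exon 2 of the genes, at chr6:41113861-41113944 for TRBV12-1, chr6:41119158-41119241 for TRBV12-2, chr6:41141447-41141530 for TRBV15 and chr6:41152019-41152102 for TRBV16.

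The joint name did not carry the loops of TRBV12-2. All 436 contigs named TRBV12-2+TRBV13-2 in replicates 2 and 3 had the sequence of TRBV13-2, which differed from TRBV12-2 at 46 of 84 bases. These contigs were therefore left out of the group, as the exact names require. The file of replicate 1 did not list the loops, so this was not checked in that library.

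Each V exon ends at a recombination signal, made of a heptamer, a spacer and a nonamer, at which the RAG recombinase cuts. Shown are the last 12 coding bases in GRCm38, then the heptamer and the nonamer in capitals with a spacer of 23 bases between them.
TRBV12-1, chr6:41114056-41114106: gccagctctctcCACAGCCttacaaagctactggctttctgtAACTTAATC
TRBV12-2, chr6:41119353-41119403: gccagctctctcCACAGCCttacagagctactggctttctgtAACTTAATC
TRBV15, chr6:41141647-41141697: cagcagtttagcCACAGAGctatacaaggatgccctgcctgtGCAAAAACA
TRBV16, chr6:41152219-41152269: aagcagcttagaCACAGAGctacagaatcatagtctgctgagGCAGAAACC

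The related genes resembled each other here too. Of 21 TRBV genes of the files with an annotated exon, 4 had the heptamer CACAGCC, 2 had CACAGAG and 7 had CACAGTG at the annotated end of the V exon, read on the strand of the gene. The nonamer AACTTAATC was at this place in 2 genes, TRBV12-1 and TRBV12-2. None of these matches was tested for function.

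All 4 genes were found in all 3 libraries, at shares that ranged from rare to common. Together they made up 12.7% of cells in replicate 1 (95% interval 11.4% to 14.2%), 15.2% in replicate 2 (14.0% to 16.4%) and 14.5% in replicate 3 (11.9% to 17.4%), a mean of 14.1% ± 1.26 (SD, n = 3 libraries). By rearrangements, which count each clone once, they made up 13.9%, 13.0% and 15.1%, a mean of 14.0% ± 1.05 (SD, n = 3 libraries). Intervals are exact Clopper-Pearson intervals that cover counting error only, and cells of 1 clone are not independent of each other.

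TRBV16 was the most frequent of the 4 and ranked 7 among the 22 names by rearrangements. In replicates 1, 2 and 3 it was used by 99 of 1302 (7.60%), 137 of 2033 (6.74%) and 43 of 537 (8.01%) rearrangements, a mean of 7.45% ± 0.648 (SD, n = 3 libraries). TRBV15 ranked 11, with 48, 91 and 20 rearrangements, or 3.69%, 4.48% and 3.72% (mean 3.96% ± 0.445). For both genes the exact intervals of the 3 libraries overlapped.

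TRBV12-1 and TRBV12-2 were rare, ranking 18 and 19. TRBV12-1 had 23, 16 and 11 rearrangements, or 1.77%, 0.787% and 2.05% (mean 1.53% ± 0.662, SD, n = 3 libraries). TRBV12-2 had 11, 20 and 7 rearrangements, or 0.845%, 0.984% and 1.30% (mean 1.04% ± 0.235). Replicate 2 was the lowest library for TRBV12-1, whereas TRBV12-2 was similar in all.

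**Figure D1:**
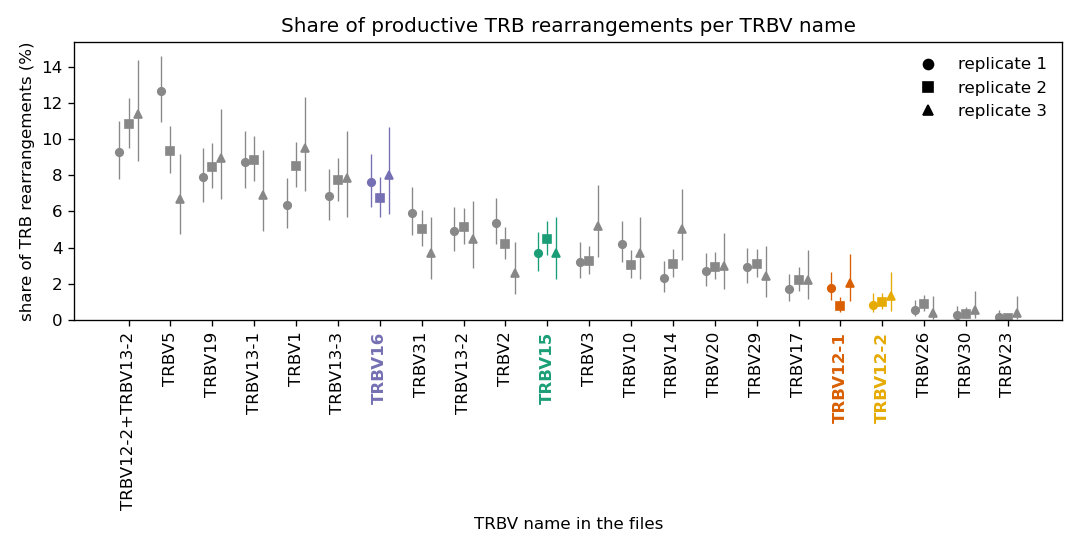
Share of productive TRB rearrangements (vertical axis, percent) for each of the 22 TRBV names (horizontal axis, ordered by mean), with circles, squares and triangles for replicates 1, 2 and 3 and bars for exact 95% intervals. TRBV16 (purple) stands among the common genes at 6.74% to 8.01%, TRBV15 (green) in the middle at 3.69% to 4.48%, and TRBV12-1 (orange) and TRBV12-2 (yellow) among the rare genes at 0.787% to 2.05%.

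The gene with the nearest shares over the 3 libraries was TRBV13-3 for TRBV16 (mean absolute difference 0.646 percentage points), TRBV10 for TRBV15 (0.655), TRBV17 for TRBV12-1 (0.563) and TRBV26 for TRBV12-2 (0.446). TRBV26 (Vβ3), itself another superantigen-reactive V gene, made up 0.598% ± 0.262 of rearrangements (SD, n = 3 libraries) and TRBV17 2.05% ± 0.309. The neighbours of the 4 genes on the chromosome were TRBV13-1 at 8.17% ± 1.11, TRBV13-2 at 4.83% ± 0.331 under this exact name, TRBV14 at 3.48% ± 1.40 and TRBV17. The joint name TRBV12-2+TRBV13-2 was the most frequent of all at 10.5% ± 1.07. Its contigs had the sequence of TRBV13-2 in replicates 2 and 3, so the 4.83% leaves out part of the use of that gene. Thus, genes that lie next to each other had unequal shares, with the rare TRBV12-1 and TRBV12-2 on either side of the common TRBV13-1.

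Whether a gene's share of rearrangements differed among the libraries was asked with an exact two-sided test of counts for each of 21 TRBV names with at least 10 rearrangements, adjusted over all of them by Benjamini-Hochberg. Of the 21 names, 4.76% were called (adjusted p under 0.05), and 0 of the 4 genes were. At an unadjusted p under 0.05 there were 5 names, 1 of them TRBV12-1. In this exact test the adjusted p was 0.083 for TRBV12-1 (unadjusted p = 0.0095), 0.82 for TRBV12-2, 0.80 for TRBV15 and 0.79 for TRBV16. The largest gap between libraries was 1.27 percentage points for TRBV16, 1.26 for TRBV12-1, 0.790 for TRBV15 and 0.459 for TRBV12-2. These tests compare rearrangements in these libraries, which held 1 or 2 mice each, so a p-value measures counting error and not the spread between mice.

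Many T cells carry a rearrangement on each TRB chromosome, and one that failed makes no receptor on which selection could act. Nonproductive TRB transcripts of the same cells were therefore set beside the productive ones. These were full-length TRB contigs with a V and a J gene that Cell Ranger called nonproductive, counted once per V gene, J gene and productive TRB of the cell. There were 128, 173 and 34 of them in replicates 1, 2 and 3. Before this counting, 76.3%, 57.4% and 62.9% of the contigs had a CDR3, so a failed join was not seen in all of them. By gene, a CDR3 was listed for 105 of 106 TRBV12-1, 6 of 10 TRBV12-2, 45 of 49 TRBV15 and 9 of 11 TRBV16 contigs.

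TRBV15 was more frequent among nonproductive than among productive TRBs in every library. In replicates 1, 2 and 3 it made up 10 of 128 (7.81%), 24 of 173 (13.9%) and 9 of 34 (26.5%) nonproductive TRBs, against 3.69%, 4.48% and 3.72% of productive rearrangements. TRBV12-1 had the same direction, with 14 (10.9%), 8 (4.62%) and 2 (5.88%) nonproductive TRBs against 1.77%, 0.787% and 2.05% of productive rearrangements. The 14 of replicate 1 counted a TRBV12-1 to TRBJ2-4 rearrangement more than once, because its cells differed in productive TRB. In 69 cells it lay beside 4 distinct productive TRBs. Listed as TRBJ2-5 in 7 cells, it lay beside 2. The 10.9% therefore includes repeated counts, and the share with this rearrangement counted once was not calculated. TRBV12-2 had 5 (3.91%), 5 (2.89%) and 0 nonproductive TRBs against 0.845%, 0.984% and 1.30%. In 1 cell of replicate 1 and 1 cell of replicate 2, the nonproductive contig did not carry the V end of TRBV12-2. Both cells had a productive TRB of the joint name TRBV12-2+TRBV13-2. Whether these contigs were failed TRBV12-2 joins was not tested. With 34 nonproductive TRBs in replicate 3, a share of TRBV12-2 of a few percent was not detectable at this depth.

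TRBV16 had the opposite direction. It made up 4 of 128 (3.13%), 4 of 173 (2.31%) and 2 of 34 (5.88%) nonproductive TRBs, below its 7.60%, 6.74% and 8.01% of productive rearrangements in all 3 libraries.

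**Figure D2:**
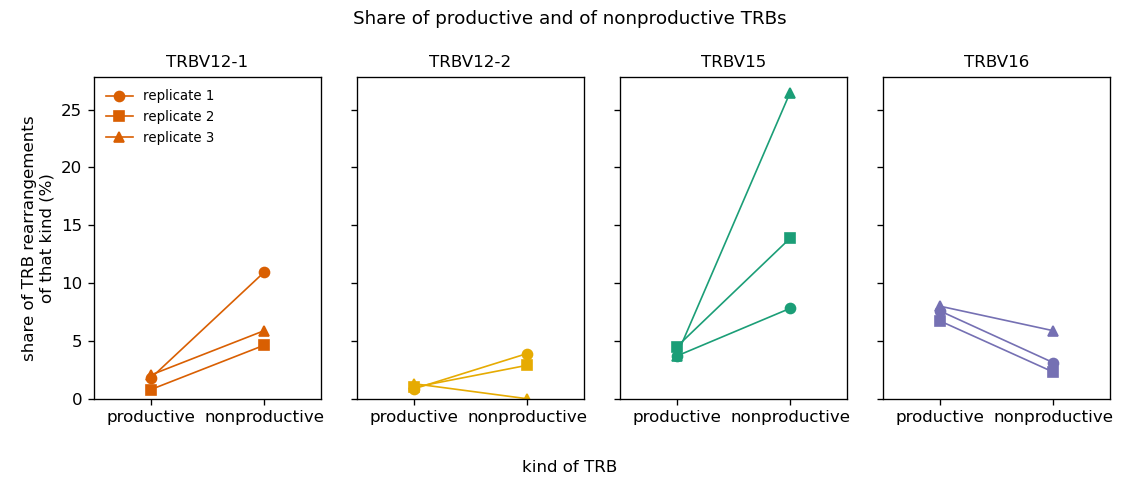
Share of each gene (vertical axis, percent) among productive rearrangements and among nonproductive TRBs of cells (horizontal axis), with a line for each library, marked by circles, squares and triangles for replicates 1, 2 and 3. The lines rise for TRBV12-1 and TRBV15 and fall for TRBV16 in all 3 libraries, and for TRBV12-2 they rise in replicates 1 and 2 and fall to 0 in replicate 3.

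Each gene was set against all other TRBV names within libraries in an exact stratified test (two-sided), which called 61.9% of 21 names, so unequal shares were common among TRBV genes and not particular to these 4. All 4 genes were among those called. The odds ratio of productive to nonproductive was 0.170 for TRBV12-1 (95% interval 0.100 to 0.294, adjusted p = 1.0e-08 in the exact test), 0.321 for TRBV12-2 (0.155 to 0.729, adjusted p = 0.0086), 0.287 for TRBV15 (0.199 to 0.421, adjusted p = 1.0e-08) and 2.52 for TRBV16 (1.33 to 5.36, adjusted p = 0.0056). Without replicate 1, the exact test no longer called TRBV12-2 (adjusted p = 0.14), and without replicate 2 it called neither TRBV12-2 (adjusted p = 0.072) nor TRBV16 (adjusted p = 0.14). With at least 3 UMIs per contig, the odds ratio of TRBV16 was 5.65. Had the joint name been counted as TRBV12-2, whose loops it does not carry, the odds ratio of TRBV12-2 would have turned to 2.53.

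The most frequent nonproductive TRB of the group was a TRBV12-1 to TRBJ2-4 rearrangement in replicate 1. It is shown from its conserved cysteine codon, with the bases that match neither the V nor the J gene in capitals, and its 43 bases leave a remainder of 1 base after division into codons.
TRBV12-1 TRBJ2-4, nonproductive: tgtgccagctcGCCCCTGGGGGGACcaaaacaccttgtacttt
Nonproductive TRBV12-1 to TRBJ2-4 contigs were found in 83 cells of replicate 1, 69 with the CDR3 printed here, and 76 of the 83 also carried the largest productive TRB of that library, a TRBV19 to TRBJ2-4 rearrangement of 365 cells. In these cells, the nonproductive contigs had a median of 3 UMIs and the productive TRB 11, and they were detected in 20.8% of the 365 cells. TRBV19 is named here after its values were seen. An alternative chosen after seeing the data counted nonproductive TRBs once per V gene, J gene and nucleotide CDR3. It left TRBV12-1 at an odds ratio of 0.177 (adjusted p = 1.5e-07 in the exact test). The junction was also listed with other CDR3 limits in 10 cells and as TRBJ2-5 in 7 cells. This alternative therefore still counted it more than once, as did the main count behind the odds ratio of 0.170. Neither can give the value with the clone counted once. Without replicate 1, the odds ratio of TRBV12-1 was 0.199 (adjusted p = 0.00053 in the exact test).

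The 4 genes were then compared in clonal expansion, the number of cells that share a rearrangement. Expanded rearrangements, those of more than 1 cell, were 33 of 181 (18.2%), 64 of 264 (24.2%) and 11 of 81 (13.6%) in replicates 1, 2 and 3. All other TRBV names had 20.8%, 21.8% and 12.3%. The values of the group lay below the others in replicate 1 and above them in replicates 2 and 3.

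By gene, TRBV16 had 22 of 99, 31 of 137 and 8 of 43 expanded rearrangements. TRBV15 had 6 of 48 and 23 of 91 in replicates 1 and 2 and 0 of 20 in replicate 3, where 0 counts allow a share of up to 16.8% (exact 95% interval). TRBV12-1 had 4 of 23, 4 of 16 and 2 of 11, and TRBV12-2 had 1 of 11, 6 of 20 and 1 of 7. In the exact stratified test, 4.76% of 21 names were called and 0 of the 4 genes, and at an unadjusted p under 0.05 there were 2 names and again 0 of the 4. The odds ratio of expansion against all other names was 1.13 for TRBV16 (95% interval 0.824 to 1.52), 0.864 for TRBV15 (0.552 to 1.31), 1.05 for TRBV12-1 (0.465 to 2.16) and 1.08 for TRBV12-2 (0.424 to 2.43), with adjusted p from 0.86 to 0.88 in this exact test. Without replicate 2, the odds ratio was 0.426 for TRBV15 and 0.591 for TRBV12-2, neither called. The intervals for TRBV12-1 and TRBV12-2 were wide, and a 2-fold difference in odds was not detectable at this depth.

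**Figure D3:**
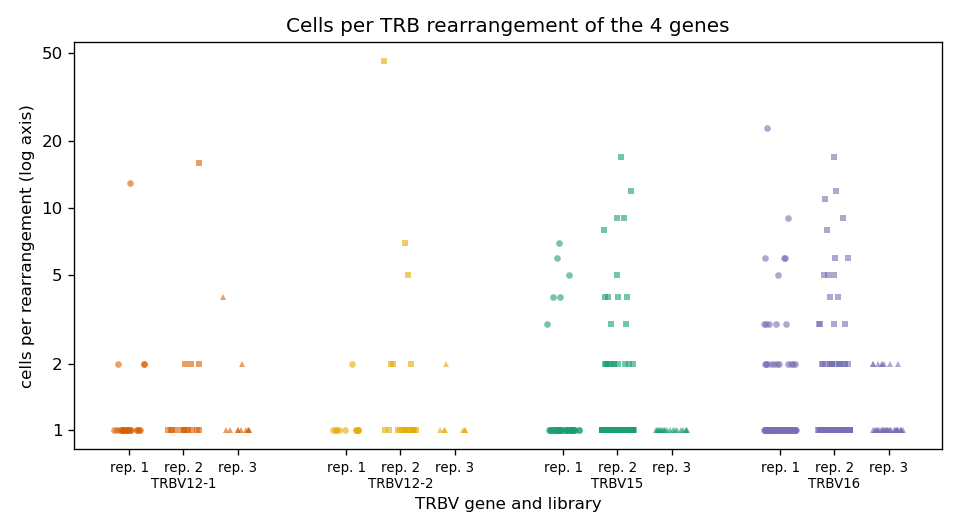
Cells per rearrangement (vertical axis, log scale) for each rearrangement of the 4 genes in each library (horizontal axis), with 1 point per rearrangement spread sideways to separate the points. Most rearrangements were single cells, the largest were a TRBV12-2 rearrangement of 46 cells in replicate 2 and a TRBV16 rearrangement of 23 cells in replicate 1, and TRBV15 had no rearrangement above 1 cell in replicate 3.

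Single clones moved the share of cells where a gene was rare. TRBV12-2 was used by 12 cells in replicate 1 (0.533%), 78 in replicate 2 (2.32%) and 8 in replicate 3 (1.25%), although its share of rearrangements was similar in the 3 libraries. In replicate 2, 1 rearrangement held 46 of the 78 cells (59.0%), and without it 32 cells remained, or 0.952% of the library. TRBV12-1 was used by 38, 34 and 15 cells, of which its largest rearrangement held 34.2%, 47.1% and 26.7%. TRBV15 was used by 71, 171 and 20 cells and TRBV16 by 169, 238 and 51, and their largest rearrangements held at most 9.94% and 13.6% of them.

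The largest rearrangement of each gene in a library, where it reached at least 7 cells, is shown with the α chain found in most of its cells. The bases of the TRB CDR3 that match neither the V nor the J gene in GRCm38, and so include the D segment and added bases, are in capitals. The TRA CDR3 is in lower case throughout.
TRBV12-1 TRBJ2-1, replicate 1, 13 cells: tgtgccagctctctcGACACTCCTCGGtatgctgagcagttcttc
TRAV4-3 TRAJ43, in 12 of these cells: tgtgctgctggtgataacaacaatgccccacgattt
TRBV12-1 TRBJ2-7, replicate 2, 16 cells: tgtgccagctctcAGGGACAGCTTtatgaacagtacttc
TRAV8D-2 TRAJ57, in 16 of these cells: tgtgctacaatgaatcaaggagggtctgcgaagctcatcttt
TRBV12-2 TRBJ2-7, replicate 2, 46 cells: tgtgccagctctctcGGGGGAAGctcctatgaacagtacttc
TRAV6-2 TRAJ45, in 38 of these cells: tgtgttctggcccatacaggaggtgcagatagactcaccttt
TRBV15 TRBJ2-1, replicate 1, 7 cells: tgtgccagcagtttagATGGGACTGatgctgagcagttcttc
TRAV10D TRAJ23, in 7 of these cells: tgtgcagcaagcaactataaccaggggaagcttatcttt
TRBV15 TRBJ2-1, replicate 2, 17 cells: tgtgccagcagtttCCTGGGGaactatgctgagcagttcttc
TRAV3-3 TRAJ45, in 6 of these cells: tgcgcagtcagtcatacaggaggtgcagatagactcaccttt
TRBV16 TRBJ1-1, replicate 1, 23 cells: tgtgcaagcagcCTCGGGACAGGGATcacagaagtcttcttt
TRAV6N-7 TRAJ43, in 20 of these cells: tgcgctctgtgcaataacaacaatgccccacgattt
TRBV16 TRBJ1-6, replicate 2, 17 cells: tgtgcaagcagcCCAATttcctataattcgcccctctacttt
TRAV14D-2 TRAJ27, in 16 of these cells: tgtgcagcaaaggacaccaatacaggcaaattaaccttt

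The leading α chain was found in most cells of these rearrangements, except in 1 TRBV15 rearrangement. No TRA was detected in 11 of the 17 cells of the TRBV15 rearrangement of replicate 2 and in 7 of the 46 cells of the TRBV12-2 rearrangement, against 0 to 3 cells of the other 5. In replicate 3 the largest rearrangements were small: 4 cells for TRBV12-1 (TRBJ1-2, with TRAV16N and TRAJ15), 2 for TRBV12-2 (TRBJ2-7, no TRA), 2 for TRBV16 (TRBJ2-2, with TRAV12D-1 and TRAJ42) and 1 for TRBV15. The largest TRBV12-2 rearrangement of replicate 1 had 2 cells.

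The bases between V and J were similar in number to those of other TRBs. Medians over rearrangements were 10 bases for TRBV12-1 and TRBV16, 11.5 for TRBV12-2 and 9 for TRBV15, and 10 for all other names that could be matched. The V genes differed in how often their coding end was kept whole. In TRBV15 the full V end was present in 8 of 159 rearrangements (5.03%), in TRBV16 in 51 of 279 (18.3%), in TRBV12-1 in 17 of 50 (34.0%) and in TRBV12-2 in 14 of 38 (36.8%), while the other names had 22.0%. The CDR3 was 14 residues long at the median for TRBV12-1, TRBV12-2 and TRBV16 and 13 for TRBV15. These are descriptions, without a test.

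J gene use was measured to ask whether the 4 genes joined to the same part of the locus. The TRBJ2 cluster, which lies downstream of TRBJ1, was used by 66.3%, 64.4% and 64.2% of the rearrangements of the group in replicates 1, 2 and 3, beside 67.1%, 64.7% and 68.6% of all others. By gene over the 3 libraries, it was used by 29 of 50 TRBV12-1, 26 of 38 TRBV12-2, 100 of 159 TRBV15 and 187 of 279 TRBV16 rearrangements. The exact stratified test called 4.76% of 21 names and 0 of the 4 genes, and at an unadjusted p under 0.05 there were 7 names and again 0 of the 4. The test gave odds ratios of TRBJ2 to TRBJ1 of 0.693 for TRBV12-1 (95% interval 0.380 to 1.29), 1.12 for TRBV12-2 (0.544 to 2.45), 0.878 for TRBV15 (0.625 to 1.24) and 1.05 for TRBV16 (0.807 to 1.38). The odds ratio of TRBV12-2 was 0.481 without replicate 2 and 1.85 without replicate 1, and that of TRBV12-1 was 0.407 without replicate 1, none of them called.

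Single J genes differed more. TRBJ1-2 was joined in 2 of 23, 5 of 16 and 4 of 11 TRBV12-1 rearrangements, 22.0% over the libraries, which was above the 0 to 14.8% of the 17 other names with at least 10 rearrangements. It was rare in the related TRBV12-2 (1 of 38), in TRBV15 (3 of 159) and in TRBV16 (2 of 279, 0.717%), whereas all other names together had it in 5.38%. This J gene was singled out after its values were seen and was not tested. TRBJ2-7 was the most frequent J gene of TRBV12-2 (31.6%), TRBV15 (18.9%) and TRBV16 (20.1%), and shared the first place with TRBJ1-2 in TRBV12-1. TRBJ1-1 was joined in 29 of 159 TRBV15 rearrangements, of which 1 of 20 was in replicate 3, and in 33 of 279 TRBV16 rearrangements.

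**Figure D4:**
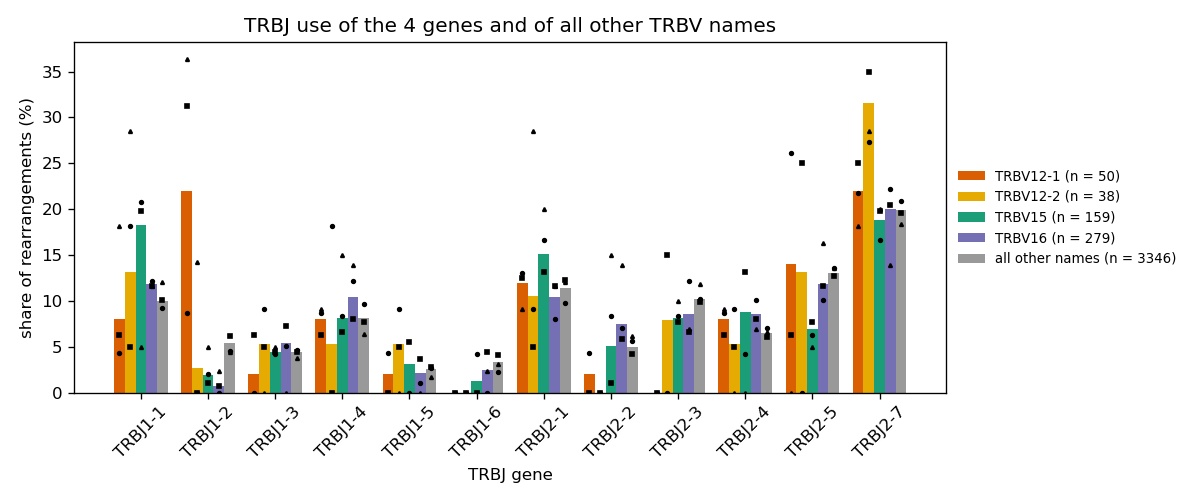
Share of rearrangements joined to each TRBJ gene (vertical axis, percent) for the 4 genes and all other TRBV names, with bars for all rearrangements of the 3 libraries and black circles, squares and triangles for replicates 1, 2 and 3. The bar of TRBV12-1 at TRBJ1-2 stands at 22.0% against 5.38% for other names, and TRBJ2-7 is high for all.

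The α chains paired with the 4 genes were diverse. A TRA was found for 421 of 526 rearrangements, with 59 TRAV and 40 TRAJ names among the leading α chains. TRAV16N was the most frequent partner, alone or tied, of TRBV12-1 (5 of 41 rearrangements with a TRA, 12.2%), TRBV12-2 (4 of 27, 14.8%) and TRBV15 (12 of 122, 9.84%). It was found with TRBV16 in 4 of 231 (1.73%) and with other names in 95 of 2753 (3.45%). For TRBV15 the count was 3 of 45, 8 of 67 and 1 of 10 in replicates 1, 2 and 3, each share above that of the other names in the same library (3.60%, 3.23% and 4.00%). For TRBV12-1, by contrast, replicate 2 had 0 of 14. Where α chains of a rearrangement tied in cells, the leading one was chosen by UMIs for the 4 genes. For the other names it was chosen by order of name, so their shares were not measured in quite the same way. These counts are small, and the share of TRAV16N was not tested.

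TRBV16 was paired most often with TRAV9-1 (19 of 231), TRAV13-1 (16) and TRAV6N-7 (15). TRBV15 was paired after TRAV16N with TRAV5-4 (9 of 122) and TRAV4-3 (8), TRBV12-1 with TRAV6-6 (4 of 41) and TRAV14D-1 (3), and TRBV12-2 with TRAV6N-7 (4 of 27) and TRAV13-1 (2), the last places of TRBV12-1 and TRBV12-2 being tied with other genes. Among J genes of the α chain, TRAJ56 (14), TRAJ22 (11) and TRAJ42 (11) led for TRBV16, and TRAJ31 (12), TRAJ40 (10) and TRAJ48 (7) for TRBV15. TRAJ37 (5), TRAJ39 (5) and TRAJ23 (4) led for TRBV12-1, and TRAJ43, TRAJ45 and TRAJ49 (3 each) for TRBV12-2.

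In some cells no TRA was detected. For TRBV16 these were 9.47%, 20.2% and 33.3% of its cells in replicates 1, 2 and 3, below the other names (17.6%, 21.1% and 37.4%) in each. TRBV15 went from below them in replicate 1 (8.45%) to above them in replicate 2 (59 of 171 cells, 34.5%) and replicate 3 (10 of 20). TRBV12-1 had 18.4%, 11.8% and 26.7%, and TRBV12-2 had 33.3%, 14.1% and 6 of 8 cells. These shares were not tested.

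Some cells carried a second productive TRB. Of the TRB contigs of the 4 genes, 38 of 290 (13.1%), 89 of 524 (17.0%) and 7 of 94 (7.45%) were in such cells in replicates 1, 2 and 3, beside 9.15%, 11.3% and 2.33% of the contigs of other names. The share was higher for the group in each library, though contigs of 1 clone are not independent and no test was made. Median UMIs per TRB contig were also higher for the group, at 10, 9 and 5 against 7, 6 and 4, and the part of depth in this difference was not tested. In replicate 1 TRBV15 had the highest share (15 of 71) and in replicate 2 TRBV16 (55 of 240). Not all 4 genes were above the other names. TRBV12-1 was below them in replicates 1 and 2 (7.89% and 5.88%) and above them in replicate 3 (6.67%). TRBV12-2 was below them in replicate 2 (7.69%) and above them in replicates 1 and 3 (16.7% and 12.5%). Single other names varied as well. Counted by cells, the group had 12.2%, 14.7% and 6.45% in replicates 1, 2 and 3. Among its neighbours on the chromosome, TRBV17 had 17.6%, 9.62% and 0%, and TRBV13-2 had 12.3%, 12.9% and 0%. TRBV13-1 had 8.46%, 13.7% and 2.44%, and TRBV14 had 2.38%, 12.8% and 0%. In replicate 1, TRBV17 and TRBV13-2 were thus above the group.

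**Figure D5:**
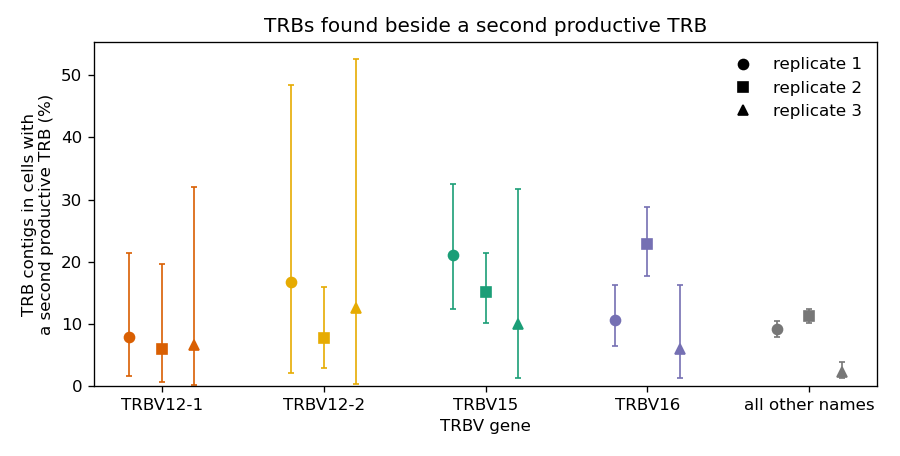
Share of TRB contigs found in cells with a second productive TRB (vertical axis, percent) for the 4 genes and all other TRBV names (horizontal axis), with circles, squares and triangles for replicates 1, 2 and 3 and bars for exact 95% intervals. TRBV15 in replicate 1 (21.1%) and TRBV16 in replicate 2 (22.9%) are the highest points plotted. The other names, plotted only together, lie between 2.33% and 11.3%.

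Pairs of TRBs that recurred in more than 1 cell held part of these contigs. The 4 recurrent pairs that involved the 4 genes, named after their values were seen, were 3 in replicate 2 and 1 in replicate 1. A TRBV16 to TRBJ1-6 rearrangement of 17 cells, shown above, was found with a TRBV1 to TRBJ2-1 rearrangement of 15 cells in 14 cells. A TRBV15 to TRBJ1-4 rearrangement of 12 cells was found with a TRBV16 to TRBJ2-1 rearrangement of 9 cells in 8 cells, so that these cells carried transcripts of Vβ12 and Vβ11. A TRBV15 to TRBJ2-7 and a TRBV20 to TRBJ1-2 rearrangement of 4 cells each were found together in all 4. In replicate 1, a TRBV12-1 and a TRBV16 rearrangement, each joined to TRBJ2-7, were found together in 2 cells. Without the cells of recurrent pairs, of any TRBV name, the group's share was 11.9%, 11.2% and 7.45% in replicates 1, 2 and 3, beside 8.71%, 10.4% and 2.33% for other names. This count was chosen after seeing the data, and it brought the group near the other names in replicate 2, with TRBV16 at 15.1% and TRBV15 at 8.75%. Of 92 distinct pairs that involved the 4 genes, 88 were in 1 cell, where a T cell with a pair of TRBs and a pair of T cells in 1 droplet cannot be told apart. Both TRBs were of the 4 genes in 3, 14 and 1 cells.

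TRBs with the same V gene and amino acid CDR3 in more than 1 library were found 7 times among 516 of the group (1.36%), near the 44 of 3281 (1.34%) for other names. Of the 7, 4 used TRBV15 and 3 used TRBV16, none used TRBV12-1 or TRBV12-2, and 0 were in all 3 libraries. In 5 of the 7 the nucleotide sequences differed between the libraries. Of these, 6 are shown, from the most to the fewest cells, with bases that differ between the libraries in capitals.
TRBV15 TRBJ1-1, 5 cells of replicate 1 and 1 of replicate 2: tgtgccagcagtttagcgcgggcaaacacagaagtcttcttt
TRBV15 TRBJ1-1, 3 cells of replicate 1: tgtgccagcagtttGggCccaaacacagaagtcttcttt
TRBV15 TRBJ1-1, 1 cell of replicate 2: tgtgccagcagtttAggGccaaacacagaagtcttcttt
TRBV16 TRBJ1-1, 2 cells of replicate 1: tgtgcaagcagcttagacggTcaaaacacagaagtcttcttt
TRBV16 TRBJ1-1, 1 cell of replicate 2: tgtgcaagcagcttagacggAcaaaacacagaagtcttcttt
TRBV15 TRBJ2-4, 1 cell of replicate 1: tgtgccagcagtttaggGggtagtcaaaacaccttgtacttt
TRBV15 TRBJ2-4, 1 cell of replicate 2: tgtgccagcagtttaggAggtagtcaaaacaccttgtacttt
TRBV16 TRBJ2-7, 1 cell of replicate 1: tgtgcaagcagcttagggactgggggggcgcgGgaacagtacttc
TRBV16 TRBJ2-7, 1 cell of replicate 3: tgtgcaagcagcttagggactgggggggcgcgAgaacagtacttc
TRBV15 TRBJ2-7, 1 cell of replicate 1: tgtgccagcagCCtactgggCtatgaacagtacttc
TRBV15 TRBJ2-7, 1 cell of replicate 2: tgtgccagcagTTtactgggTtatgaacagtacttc

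A leading TRA was known in both libraries for 4 of the 7, and in 2 of these 4 it used the same TRAV and TRAJ. The TRBV16 to TRBJ2-7 receptor was paired with TRAV21-DV12 and TRAJ42 in replicates 1 and 3, with 1 base and 0 residues different in the TRA CDR3. The amino acid CDR3 of both chains was thus the same in a cell of each library, while the nucleotide sequences of both chains differed as read. The TRA had 7 UMIs in replicate 1 but 1 UMI in replicate 3, so its 1 differing base could be a sequencing error, which was not tested.
TRAV21-DV12 TRAJ42, replicate 1: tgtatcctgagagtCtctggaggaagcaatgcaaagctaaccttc
TRAV21-DV12 TRAJ42, replicate 3: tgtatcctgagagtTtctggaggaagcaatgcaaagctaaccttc

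The first TRBV15 to TRBJ1-1 receptor had 1 nucleotide sequence of its TRB in replicates 1 and 2 but 3 different TRAV5-4 to TRAJ43 chains of 36 bases, shown with the 3 variable bases in capitals. In replicate 1, the 2 cells with the second of these chains also had a TRAV4-3 to TRAJ45 chain. The 3 chains encoded 2 amino acid sequences.
TRAV5-4 TRAJ43, replicate 1, 3 cells: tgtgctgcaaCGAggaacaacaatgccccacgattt
TRAV5-4 TRAJ43, replicate 1, 2 cells: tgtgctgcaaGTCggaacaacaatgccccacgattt
TRAV5-4 TRAJ43, replicate 2, 1 cell: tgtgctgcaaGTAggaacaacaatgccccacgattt
Counted by TRB alone, the 5 cells of replicate 1 were 1 expanded rearrangement, whereas by α and β chain together they fell into 3 and 2 cells.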

How the data were processed

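The 3 libraries of 1 condition held sorted CD45+ nerve cells of 4 mice, in which TCR transcripts were sequenced per droplet. The authors assembled TCR contigs with Cell Ranger on mm10 (the version is not given in the sources used here) and deposited, for each contig, its V and J genes, CDR3 and counts of UMIs and reads. Their clonotype tables, as deposited, give cells per clonotype (a count) and the share of all cells (a fraction). The consensus sequences they deposited were left out. The contig table has 18 columns in replicate 1 and 31 in the others, where framework and CDR sequences are listed. Contigs had 34630, 41338 and 5142 UMIs in replicates 1, 2 and 3.

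Productive TRB contigs of cell barcodes were counted by cell and by rearrangement, with no minimum of UMIs and no doublet caller. Exact two-sided tests of counts, stratified by library except between libraries, compared each TRBV name with all others where it had 10 rearrangements or more, and the 21 p-values were adjusted by Benjamini-Hochberg. On simulated data in which the odds of TRBV15 and TRBV16 were raised 3-fold, the test of expansion recovered 100% of these changes. With no gene changed, 4.17% of genes had p under 0.05 in this test. In the test between libraries, with the weight of these 2 genes raised 3-fold in 1 library, these values were 100% and 6.16%. Changes in the rarer TRBV12-1 and TRBV12-2 and the other tests were not simulated. Germline sequences came from GRCm38.p6 and GENCODE M21. V and J matches are the longest identical runs from either end of the CDR3. The name TRBV12-2+TRBV13-2, which has no segment of its own in the annotation, was matched with TRBV13-2.

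The members and lists were chosen with earlier results of these data known. Genes named besides the 4 were, by rule, their neighbours, TRBV26, the joint name and the gene nearest in share. Clones named were the largest per gene and library and TRBs in more than 1 library. The rule for the latter was the 5 with most cells, but the last 4 of the 7 tied at 2 cells, so the ties were shown too, except 1 sequence that is not reported here. For α chains the 3 most frequent partners were named. J genes and pairs of TRBs were named after their values were seen. Alternatives were a minimum of 3 UMIs, cells with 1 TRB, the joint name given to either gene, amino acid CDR3s, other limits of expansion (over 2 and over 5 cells), Cell Ranger clonotypes, no minimum of rearrangements, nonproductive contigs of all barcodes and leaving out each library. The software was Python 3.11.15 with scipy 1.17.1, numpy 2.4.6, pandas 2.3.3 and, for figures, matplotlib 3.10.9.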

Additional observations from a re-analysis of the deposited data

Results flagged for a closer look

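Productive TRBs of the 4 genes were also present on barcodes that were not called cells, which no comparison used. In replicates 1, 2 and 3 they were on 1009, 211 and 68 such barcodes, or 15.7%, 21.3% and 12.7% of all such barcodes with a productive TRB. They stood above the 3 counts that a count of 0 allows. In replicate 1 they had a median of 1 UMI, and on 806 of the 1009 barcodes the rearrangement was also found in a cell of that library. The same held for 164 of 211 barcodes in replicate 2, with a median of 4 UMIs, and for 43 of 68 in replicate 3, with a median of 1 UMI. What these barcodes held was not tested. With 3 libraries in 1 group, no library was tested as an outlier.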

How the results depend on the processing

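No paired analysis was possible because all libraries belong to 1 condition. The 36 library ranges of the 4 genes under alternatives, which have no direction, stayed on their side of the threshold. Of their 112 odds ratios, 94 kept direction and side, 14 changed direction, 3 lost the call without a library, as given in the report, and 1 gained it. The changes of direction were 13 odds ratios that were called in neither setting and 1 that was called in both. For expansion, the odds ratio of TRBV12-2 (1.08) became 0.992 with at least 3 UMIs, 0.975 with the joint name, 0.852 with more than 2 cells and 0.940 with Cell Ranger clonotypes. That of TRBV12-1 (1.05) became 0.769 with cells of 1 TRB and 0.673 with more than 2 cells, and that of TRBV15 (0.864) became 1.23 with more than 2 and 1.39 with more than 5 cells. Without each library, expansion gave 0.963 to 1.29 for TRBV12-1, 0.591 to 1.45 for TRBV12-2 and 0.426 to 1.02 for TRBV15, and TRBJ2 gave 0.481 to 1.85 for TRBV12-2. With the joint name counted as TRBV12-2, the odds ratio of productive to nonproductive TRBV12-2 reversed to 2.53, the group's share of rearrangements moved from 14.0% to 24.5% and of cells from 14.1% to 24.1%, and the exact test called TRBV12-2 for TRBJ2 (odds ratio 1.40, adjusted p = 0.046). With at least 3 UMIs the group's share of rearrangements was 15.2%. Without each library in turn, it was 13.4% to 14.5% and of cells 13.6% to 14.8%. The number of names called among productive and nonproductive TRBs was 7 to 13 (7 without replicate 2), against 13. For the other comparisons 1 name, none of the 4 genes, was called: 0 to 2 without each library between libraries, 0 to 1 for expansion and 0 to 1 for TRBJ2. For expansion it was 0 with at least 3 UMIs, with cells of 1 TRB, with more than 5 cells and with Cell Ranger clonotypes. For TRBJ2 it was 2 with cells of 1 TRB and 0 with the joint name as TRBV13-2 or with amino acid CDR3s. The causes were not tested. Small counts of TRBV12-1, TRBV12-2 and replicate 3 limit the precision.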
